A study of Homo sapiens with 4 samples.

Results

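The genes described here are 39 transcripts of sugar breakdown and oxygen sensing, chosen by symbol. They comprise 23 transporters and enzymes of glycolysis and its lactate branch, 13 other targets of the hypoxia-inducible factors (HIFs), and 3 HIF subunits. All 39 were found among the 63568 gene identifiers counted, and all 39 passed the filter on low counts that left 21932 genes to test. RNA was sequenced from HGC-27, an established gastric carcinoma cell line, after lentiviral infection and stable transduction with either control shRNA, a scrambled sequence, or USP47 shRNA, which targets the deubiquitinase USP47. There were 2 libraries per group, described as biological duplicates in the series' design although the methods speak of triplicate RNA, and both groups shared the same line, medium and lentiviral treatment. The design text also mentions a DMSO vehicle for controls, which no sample label repeats. No low-oxygen treatment is named for either group, and whether both knockdown libraries carry the same USP47 shRNA is not stated. The comparison asks what USP47 deficiency does to cellular pathways, and for these genes it asks whether the glycolytic transcripts and the other HIF targets moved together.

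Glycolysis splits glucose into pyruvate. Hexokinase and phosphofructokinase are its early committed steps, enolase and pyruvate kinase act near its end, and lactate dehydrogenase converts pyruvate to lactate. Cells with enough oxygen hydroxylate the HIF alpha subunits (HIF1A and EPAS1) through the EGLN prolyl hydroxylases, and VHL then marks them for degradation. When oxygen is low the alpha subunits persist, pair with ARNT and bind a short DNA element beside genes for glucose uptake, glycolysis, pH control, vessel growth, mitophagy and collagen modification. Control of HIF1A is mostly at the protein level, so its mRNA is not a measure of HIF activity, and protein was not measured in these libraries. Many tumor cells keep glycolysis high even with oxygen present.

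Total counts on genes were between 15649899 and 20140273 per library. USP47 itself was counted 1357 and 1297 times with control shRNA and 749 and 309 times with USP47 shRNA, a log2 fold change of -1.34 (standard error, SE, 0.21; adjusted p = 0.00362 by the edgeR quasi-likelihood test). That left 49.3% of the control mean in knockdown replicate 1 and 29.5% in replicate 2. Epithelial markers were near absent for a line labelled gastric carcinoma. KRT18 and KRT19 had at most 1 count in any library and EPCAM between 3 and 12, while the mesenchymal marker VIM had 7201 to 9236 and the fibroblast-type markers COL1A1, DCN and LUM had 9021 to 18883, 2949 to 3822 and 1111 to 1776. COL1A1 and EPCAM were called lower in the knockdown, EPCAM from 12 and 11 counts against 3 and 3. The other markers of these kinds that were tested were not called and differed in sign. Their log2 fold changes were 0.56 for CDH1, -0.46 for KRT8, 0.24 for DCN, -0.17 for LUM and -0.14 for VIM. The part of the markers in the results that follow was not tested. In bulk RNA, fewer cells of a type and less RNA per cell cannot be told apart. Leukocyte and endothelial markers (PTPRC, CD3E, CD68, VWF and CDH5) had at most 12 counts, and PECAM1 was not matched.

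After USP47 knockdown genes of both groups were called in both directions, and the difference between the groups was not tested. In the glycolysis group 1 of 23 genes rose (SLC2A1) and 3 fell (HK1, PFKP and ENO2) at an adjusted p below 0.05 (edgeR quasi-likelihood, adjusted over every gene tested), so 17.4% were called beside 16.1% of all genes tested. The median log2 fold change of the group was 0.05, beside -0.01 for all genes, and its sign turned with library size alone (-0.03) and without USP47 shRNA replicate 2 (-0.09), while without USP47 shRNA replicate 1 it was 0.21. Among the 13 other HIF targets 4 rose (ADM, BNIP3L, NDRG1 and P4HA2) and 1 fell (CA12), or 38.5%, and their median log2 fold change was 0.46. Over all genes tested, 6.52% were called higher and 9.56% called lower. Of the 3 HIF subunits, edgeR called 0 and DESeq2's Wald test also 0, with HIF1A alone at an unadjusted p under 0.05. Both knockdown libraries lay above both controls, in CPM (counts relative to library size, after TMM scaling), in 9 of the 13 other targets and in 7 of the 23 glycolysis genes, an order held by 29.3% of all genes tested. Both lay below in 2 and 4 of them, beside 31.7% of all genes. The counts of calls depended on single libraries, in these groups as over all genes tested. Without control replicate 1 or 2 the median log2 fold change was 0.07 and 0.12 for the glycolysis genes. For the other targets it was 0.41 and 0.43 in those fits, and 0.33 and 0.40 without USP47 shRNA replicate 1 or 2.

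**Figure D1:**
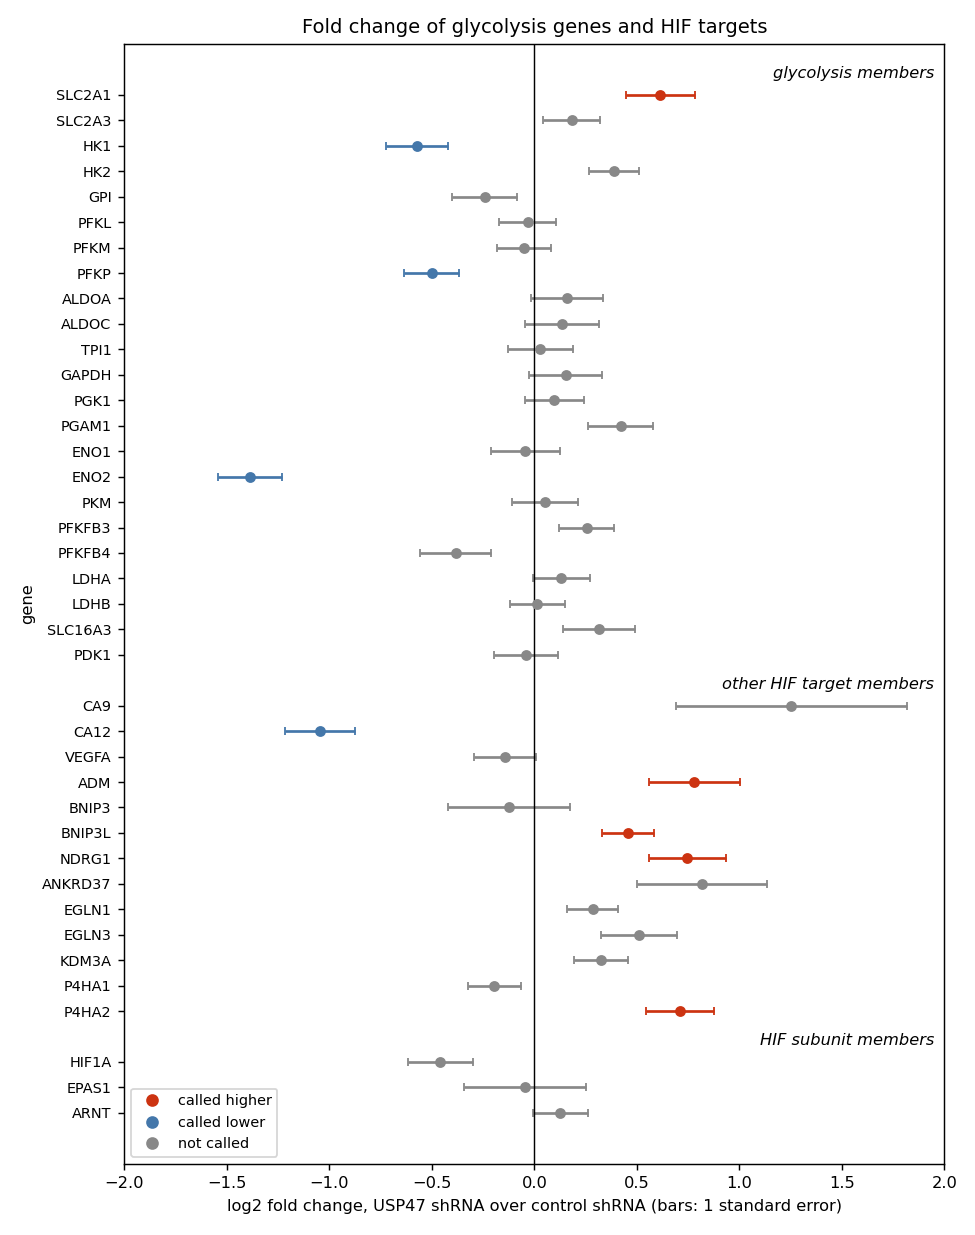
Log2 fold change of each of the 39 genes, USP47 shRNA over control shRNA, from the edgeR fit over 21932 genes (x axis), with bars of 1 standard error and genes in pathway order (y axis). Red points were called higher (5 genes), blue points called lower (4 genes) and grey points not called (30 genes), and ENO2 at -1.39 and CA12 at -1.04 lie farthest to the left.

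Because HIF binds a known short element, the promoters were searched for its core. The RefSeq table of GRCh38.p14, which gives 250 bases before and 50 after each gene start, held 35 of the 39 genes (SLC2A3, VEGFA, BNIP3L and NDRG1 had no entry). The core was taken as ACGTG or GCGTG on either strand, which reads CACGT or CACGC when it lies on the other strand. At least 1 match was present in 25 of 35 promoters (71.4%), and in 48.4% of all 27305 promoters of the table. By call, 2 of the 3 matched genes that rose, 2 of the 4 that fell and 21 of the 28 not called had a match. The stricter ACGTG was present in 13 (37.1%), beside 21.6% of all promoters, and the palindrome CACGTG, which is also the E-box bound by MYC and related factors, in 5 (14.3%), beside 7.44%. A match is a string of letters and was not tested for binding here. The lines below show 1 window from each of the 2 genes that rose and 2 that fell with a match, followed by glycolytic genes and HIF targets that were not called. They are read 5′ to 3′ on the strand of the gene, with 1 match of each window in capitals (PGK1 holds a further GCGTG in lower case) and coordinates of GRCh38.p14.
SLC2A1 (rose, chr1:42958827-42958855, minus strand, 26 bases after the start): tagcaacagcgaGCGTGccggtcgctagt
ADM (rose, chr11:10304960-10304988, plus strand, 101 bases before the start): gagcaggagcgcGCGTGgctgaggaaaga
ENO2 (fell, chr12:6914450-6914478, plus strand, 118 bases before the start): acccgcgctcgtACGTGcgcctccgccgg
CA12 (fell, chr15:63382064-63382092, minus strand, 234 bases before the start): gcggatctcaccCACGCctgccagcagct
LDHA (not called, chr11:18394464-18394493, plus strand, 87 bases before the start): cagcccgactcaCACGTGggttcccgcacg
GAPDH (not called, chr12:6535171-6535200, plus strand, 81 bases before the start): gctctgcggggtCACGTGtcgcagaggagc
PGK1 (not called, chrX:78104034-78104062, plus strand, 202 bases before the start): gcggcgtgccggACGTGacaaacggaagc
CA9 (not called, chr9:35673898-35673926, plus strand, 18 bases before the start): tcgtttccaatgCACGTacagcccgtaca
ANKRD37 (not called, chr4:185396686-185396714, plus strand, 143 bases before the start): cagtgtttgtgtACGTGcggccgtggcgg
EGLN1 (not called, chr1:231422284-231422312, minus strand, 13 bases before the start): gggccgtggtgtACGTGcagagcgcgcag
The windows thus come from genes with opposite calls, and 8 of the 35 promoters held 2 or more matches, with 5 the most in any 1 promoter.

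Levels of different genes were compared per gene length, in TPM (transcript abundance relative to its sum over a library) as the authors deposited it. GAPDH was the most abundant of the 39 in control cells at 518 ± 38.2 TPM (SD, n = 2), followed by ENO1 at 442 ± 12.5, PGAM1 at 234 ± 2.65 and TPI1 at 214 ± 1.5. LDHB (207 ± 30.9), which makes the other subunit of lactate dehydrogenase, lay within its own spread of TPI1 and above LDHA (122 ± 6.92). The 10 genes over 60 TPM were enzymes of the main pathway or lactate dehydrogenase subunits, from GAPDH down to PGK1 at 69.9 ± 0.83. At the other end were EPAS1 at 0.24 ± 0.03 TPM, CA9 at 0.29 ± 0.26 and NDRG1 at 0.57 ± 0.02. HIF1A (28.9 ± 6.74) and ARNT (22.1 ± 1.78) had levels that overlapped those of HK2 (24.1 ± 2.11). Among the alpha subunits EPAS1 thus contributed little, and HIF1A took 99.1% to 99.2% of their summed TPM in the control libraries and 98.9% to 99.0% in the knockdown libraries.

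**Figure D2:**
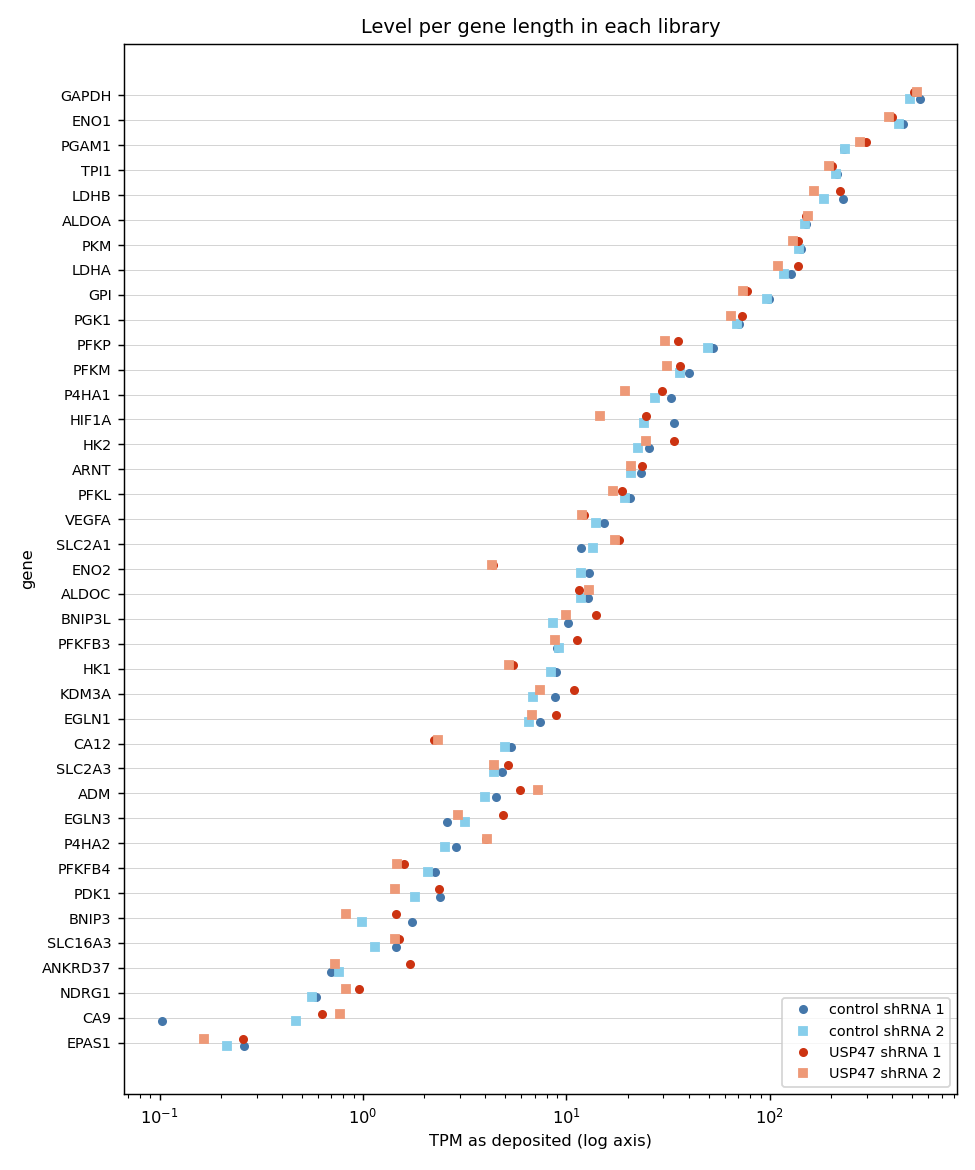
Level of each gene in TPM as deposited (x axis, log scale) in the 4 libraries, with genes ordered by their mean in control cells (y axis). Blue marks are control shRNA, red marks are USP47 shRNA, circles are replicate 1 and squares replicate 2, and the marks of ENO2, CA12, HK1 and PFKP separate to the left with USP47 shRNA.

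Glucose enters through SLC2A1 (GLUT1; chromosome 1 of GRCh37, 43391024 to 43424564) and SLC2A3 (GLUT3). SLC2A1 measured 34.1 and 44.3 CPM with control shRNA and 52.6 and 67.6 CPM with USP47 shRNA. Both knockdown libraries lay above both controls, although the control values differed by a wide margin. Its log2 fold change was 0.61 (SE 0.17, adjusted p = 0.0336 by edgeR), or 1.53-fold between the means. The call was lost when libraries were scaled by size alone (adjusted p = 0.0510), without a filter on low counts (0.0552) and without control replicate 1 (0.399). SLC2A3 measured 20.5 and 21.1 CPM against 22.0 and 25.2 CPM and was not called (log2 fold change 0.18, adjusted p = 0.396).

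Hexokinase, which traps glucose as its phosphate, was measured as HK1 and HK2, and the 2 forms had fold changes of opposite sign. HK1 (chromosome 10, 71029740 to 71161640) measured 37.8 and 40.6 CPM in control cells and 23.2 and 29.7 CPM in knockdown cells. The groups did not overlap, and the log2 fold change of HK1 was -0.57 (SE 0.15, adjusted p = 0.0292). HK2 (chromosome 2, 75061254 to 75120486), the form that HIF is known to induce, measured 106.5 and 106.8 CPM against 141.7 and 137.7 CPM. Its groups were also separate, and the log2 fold change of 0.39 (SE 0.12) missed the threshold at an adjusted p of 0.0557 in edgeR's test. DESeq2's Wald test called HK2 at an adjusted p of 0.0485. In edgeR's test its adjusted p was 0.104 with library size alone and 0.0912 without a filter on low counts. When 1 library was left out the log2 fold change was 0.38 to 0.41 for HK2 and -0.75 to -0.39 for HK1. HK2 was called without USP47 shRNA replicate 1 or 2, but neither HK2 nor HK1 was called without control replicate 1 or 2.

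The step from fructose phosphate to its bisphosphate is run by phosphofructokinase, a tetramer of PFKL, PFKM and PFKP subunits. PFKP (chromosome 10, 3108525 to 3179910) measured 173.6 and 186.2 CPM with control shRNA and 118.2 and 136.4 CPM with USP47 shRNA. It fell by 0.50 on the log2 scale (SE 0.13, adjusted p = 0.0313), and the groups did not overlap. PFKL (125.9 and 134.9 CPM against 115.6 and 139.7) and PFKM (200.2 and 204.5 against 182.5 and 208.6) overlapped between the groups, with log2 fold changes of -0.03 and -0.05 whose signs also turned when USP47 shRNA replicate 1 was left out. SENP1 overlaps PFKM on the other strand, and the use of strand in the counting is not stated. Without control replicate 1 or 2 the adjusted p of PFKP was 0.264 and 0.314. GPI, which converts glucose phosphate to fructose phosphate, measured 617.8 and 685.5 CPM against 483.9 and 618.0 CPM, and its log2 fold change of -0.24 (adjusted p = 0.323) was not called, except without USP47 shRNA replicate 2 (adjusted p = 0.00192).

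PFKFB3 and PFKFB4 make and break fructose-2,6-bisphosphate, which activates phosphofructokinase and is not the bisphosphate that phosphofructokinase makes. PFKFB3 measured 34.0 and 39.7 CPM against 43.0 and 45.1 CPM, with a log2 fold change of 0.26 (SE 0.13, adjusted p = 0.216). For PFKFB4 the values were 9.55 and 9.99 CPM against 6.73 and 8.36 CPM, with a log2 fold change of -0.38 (SE 0.17, adjusted p = 0.157). Neither passed the test, though both had separate groups, in opposite directions, and PFKFB4 was called without USP47 shRNA replicate 2 (adjusted p = 0.0155).

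Among the aldolases and the enzymes after them, ENO2 alone was called. ENO2 (chromosome 12, 7022909 to 7032861), the enolase known from neurons, was counted 646 and 776 times in control cells and 269 and 243 times in knockdown cells. In scaled units these were 38.1 and 39.6 CPM against 12.9 and 16.9 CPM. The control values differed little and the knockdown values lay far under them, a log2 fold change of -1.39 (SE 0.16, adjusted p = 0.000769) or 2.60-fold between the means. ENO2 kept its call in each alternative fit run, including each fit that left out 1 library, where its log2 fold change lay between -1.58 and -1.19. LRRC23 on the same strand overlaps its span and averaged 107 counts per library.

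Apart from ENO2 and PGAM1, the payoff enzymes and the aldolases had log2 fold changes between -0.04 and 0.16. ENO1, the general enolase, measured 1223 and 1335 CPM against 1082 and 1399 CPM, GAPDH 1113 and 1138 against 1053 and 1450, and PKM 840.7 and 930.9 against 812.7 and 1025. In each of these the higher and the lower value both came from the knockdown group, whose replicate 2 was the higher. TPI1, PGK1, ALDOA and ALDOC had log2 fold changes of 0.03, 0.10, 0.16 and 0.13, with SEs of 0.14 to 0.18, and overlapping groups. The sign of each of these 7 genes turned in at least 1 fit that left out a library, so none carries a direction. PGAM1, which moves the phosphate between carbons, measured 408.6 and 471.6 CPM against 524.5 and 653.7 CPM, with separate groups and a log2 fold change of 0.42 (SE 0.16, adjusted p = 0.0970). Without USP47 shRNA replicate 1, PGAM1, GAPDH, ALDOA and ALDOC were called higher, at adjusted p-values of 2.07e-06, 0.00379, 0.00344 and 0.00879, whereas without USP47 shRNA replicate 2 the log2 fold changes of GAPDH, ALDOA and ALDOC were -0.09, -0.08 and -0.17.

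Reads of several abundant enzymes can be shared with pseudogenes. TPI1P1 held 468 to 670 counts per library, LDHAP4 289 to 450 and GAPDHP1 209 to 281. PGAM4, a copy of PGAM1 inside the span of PGK1 on the other strand, was counted 1085 and 1444 times in control cells and 1731 and 1491 times in knockdown cells, and its log2 fold change of 0.44 (SE 0.15, adjusted p = 0.0662) was close to that of PGAM1. Adding the counts of pseudogenes named after each gene changed no call among the 39 genes. With these copies included the log2 fold change of GAPDH was 0.15 and that of LDHA 0.13, the same as without them.

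The lactate and pyruvate branch did not pass the test in any of its 4 genes, and none had an unadjusted p under 0.05. LDHA, a classical HIF target, measured 542.4 and 568.6 CPM against 586.0 and 630.7 CPM, with a log2 fold change of 0.13 (SE 0.14, adjusted p = 0.552). LDHB (468.2 and 430.2 CPM against 455.9 and 452.1) had overlapping groups and a log2 fold change of 0.02. The lactate exporter SLC16A3 (MCT4) measured 8.96 and 8.05 CPM against 9.38 and 11.9 CPM, a log2 fold change of 0.32 (adjusted p = 0.244) that was called without USP47 shRNA replicate 1 (adjusted p = 0.0183). CSNK1D, on the other strand of SLC16A3, averaged 1973 counts per library beside 152 to 195 for SLC16A3. PDK1, a kinase that inactivates pyruvate dehydrogenase and another classical target, measured 24.9 and 21.3 CPM against 24.6 and 20.1 CPM, and its groups overlapped. The signs of LDHB and PDK1 turned in fits without 1 library.

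Summed over the 23 genes, glycolysis took 7364 and 7912 CPM in control cells and 7074 and 8805 CPM in knockdown cells. The knockdown libraries thus enclosed both controls, and the spread inside the knockdown group exceeded the difference between the groups. Replicate 2 lay above replicate 1 in 20 of the 23 genes in the control group and again in 20 of 23 in the knockdown group (87.0% each), beside 49.8% and 53.1% of all genes tested. The median of replicate 2 over replicate 1 was 0.10 on the log2 scale in control cells and 0.32 in knockdown cells. In TPM the order inside each group was the reverse, with 2465 and 2319 in control cells and 2390 and 2240 in knockdown cells. Copies of 7SL RNA and ENSG00000258486 together took 49.6% to 56.5% of the TPM of a library, more in replicate 2 of each group.

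A share of 1 form within its enzyme family is a ratio inside a library and does not depend on how libraries are scaled. HK1 took 25.9% and 27.2% of hexokinase TPM in control cells and 13.9% and 17.5% in knockdown cells. HK2 therefore exceeded HK1 2.87- and 2.68-fold in control cells and 6.22- and 4.72-fold after knockdown. PFKP went from 46.4% and 47.2% of phosphofructokinase subunits to 39.2% and 38.9%, and ENO1 from 97.2% and 97.3% of the enolases to 98.9% in both libraries. These shares did not overlap between groups and lay closer together within a group than between groups.

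SLC2A1 took 70.9% and 75.5% of the pair of glucose transporters in control cells and 77.8% and 79.7% in knockdown cells, and PFKFB3 79.8% and 81.5% of its pair against 87.7% and 85.7%. ALDOA (92.2% and 92.7% against 92.9% and 92.3%) and LDHA (35.8% and 38.8% against 38.2% and 40.1%) overlapped. With 2 libraries per group an exact permutation test of both directions cannot give a p below 0.333, the value found for each share whose groups were separate, so the shares are given as a description.

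**Figure D3:**
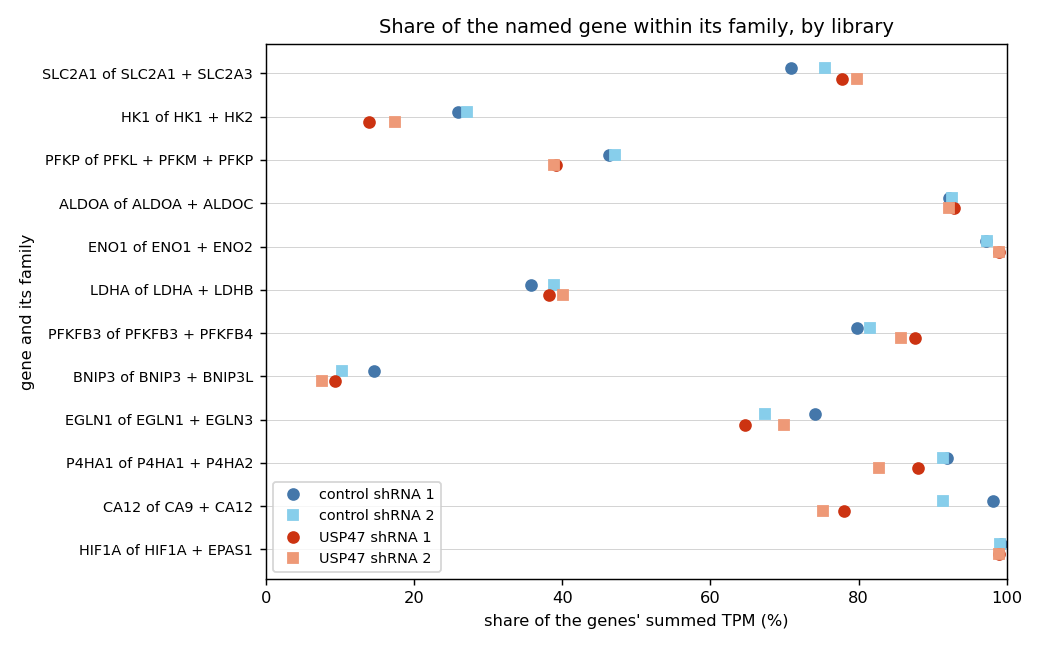
Share of the first-named gene in the summed TPM of its enzyme or protein family, in percent (x axis), for 12 families (y axis) in the 4 libraries. Blue marks are control shRNA and red marks USP47 shRNA, and the marks of the hexokinase, phosphofructokinase and carbonic anhydrase families separate by group while those of the aldolases, lactate dehydrogenase and EGLN families overlap. In the carbonic anhydrase pair, CA9 had only 2, 12, 15 and 17 counts.

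Outside glycolysis, the HIF targets for pH control and vessels were divided. CA9, a carbonic anhydrase at the cell surface that is among the most HIF-dependent transcripts known, was counted 2 and 12 times in control cells and 15 and 17 times in knockdown cells. Its log2 fold change of 1.25 carried a SE of 0.56 and was not called (adjusted p = 0.154), and control replicate 1 was far below the other 3 libraries. Without control replicate 1 the log2 fold change of CA9 was 0.59, and without USP47 shRNA replicate 2 it was 0.91. Neither of these fits called CA9. It was called without control replicate 2 (log2 fold change 2.89), where control replicate 1 was the lone control, and without USP47 shRNA replicate 1 (1.62). ARHGEF39 on the other strand averaged 316 counts, many more than CA9 had.

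CA12 (chromosome 15, 63613577 to 63674045), the related enzyme, fell. It measured 26.7 and 28.4 CPM with control shRNA and 11.3 and 15.7 CPM with USP47 shRNA, from 453, 558, 234 and 225 counts. The groups were well apart, and the log2 fold change was -1.04 (SE 0.17, adjusted p = 0.00418). Its call held in each alternative fit run, and its log2 fold change lay between -1.29 and -0.81 when 1 library was left out. CA12 took 98.1% and 91.4% of the TPM of the pair in control cells and 78.1% and 75.1% in knockdown cells. This share rests partly on the few counts of CA9. From counts without length it was 99.6% and 97.9% against 94.0% and 93.0%.

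ADM (chromosome 11, 10326620 to 10328944), which encodes the vasodilator adrenomedullin, measured 8.43 and 8.46 CPM against 11.1 and 18.3 CPM. Both knockdown libraries were above the controls but differed widely from each other. The log2 fold change of ADM was 0.78 (SE 0.22, adjusted p = 0.0389), and without USP47 shRNA replicate 2 it was 0.39 (adjusted p = 0.0642). Its call was also lost without control replicate 1 (0.0919) or 2 (0.0786), with library size alone (0.0671) and without a filter (0.0613). VEGFA, the vessel growth factor that defines many hypoxia signatures, measured 151.1 and 157.0 CPM against 121.0 and 158.0 CPM. Its groups overlapped, with a log2 fold change of -0.14 (SE 0.15, adjusted p = 0.543 by edgeR). An approximate 95% interval from the normal distribution, which is too narrow for 2 libraries per group, was -0.44 to 0.15. Without USP47 shRNA replicate 2 VEGFA was called lower (-0.34, adjusted p = 0.0162), and without replicate 1 its sign turned (0.05).

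BNIP3L and BNIP3 are outer mitochondrial membrane receptors for mitophagy, both induced by HIF. BNIP3L (chromosome 8, 26240570 to 26363152) measured 30.2 and 29.0 CPM against 41.6 and 39.6 CPM. The values inside each group were close and the groups separate, with a log2 fold change of 0.46 (SE 0.13, adjusted p = 0.0355). BNIP3 had few reads, 43 and 32 counts in control cells and 44 and 23 in knockdown cells, and its log2 fold change of -0.12 (SE 0.30) had overlapping groups and a sign that turned when control replicate 1 was left out (0.21). BNIP3 has 42 annotated pseudogenes, which held 84.3% of the counts of BNIP3 and these copies together. With their counts added the log2 fold change was -0.31 (adjusted p = 0.228 by edgeR). How reads were divided between BNIP3 and its copies was not tested.

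NDRG1 (chromosome 8, 134249418 to 134314265), a stress-responsive gene used as a hypoxia marker, measured 3.95 and 4.28 CPM against 6.44 and 7.46 CPM. The groups did not overlap, and the log2 fold change was 0.75 (SE 0.19, adjusted p = 0.0246). ANKRD37, a nuclear ankyrin protein and HIF target, measured 1.24 and 1.53 CPM against 3.03 and 1.74 CPM from 21 to 63 counts. Only USP47 shRNA replicate 1 stood well above the controls, and the log2 fold change of 0.82 (SE 0.32, adjusted p = 0.105) was not called, except without USP47 shRNA replicate 2 (adjusted p = 0.00154). The calls of BNIP3L and NDRG1 were lost without control replicate 1 (adjusted p = 0.329 and 0.225) and without control replicate 2 (0.355 and 0.127). BNIP3L also lost its call with library size alone (0.0976) and without a filter (0.0686), and NDRG1 under DESeq2's Wald test (0.0645). PNMA2 lies opposite BNIP3L and UFSP2 opposite ANKRD37, with 405 and 334 counts per library on average.

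Enzymes that themselves use oxygen form the last group of targets, and 4 of its 5 genes had both knockdown libraries above both controls, an order held by 29.3% of all genes tested. The 1 of the 5 that was called was P4HA2 (chromosome 5, 131525840 to 131631008), a catalytic subunit of the prolyl hydroxylase that stabilizes collagen. It measured 16.8 and 16.9 CPM against 23.5 and 31.8 CPM. Of the 5 genes that rose among the 39, it had the smallest adjusted p (log2 fold change 0.71, SE 0.17, adjusted p = 0.0180). Without control replicate 1 or 2 that value was 0.109 and 0.0853. PDLIM4 on the other strand averaged 613 counts per library.

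P4HA1, the other catalytic subunit and the better known HIF target, measured 71.7 and 67.6 CPM against 64.7 and 57.0 CPM, with a log2 fold change of -0.19 (SE 0.13, adjusted p = 0.324). P4HA1 took 91.9% and 91.5% of the TPM of the pair in control cells and 88.0% and 82.7% in knockdown cells. The histone demethylase KDM3A measured 81.1 and 72.0 CPM against 100.4 and 91.3 CPM (log2 fold change 0.33, adjusted p = 0.114). The groups of both genes were separate, in opposite directions.

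The HIF prolyl hydroxylases EGLN1 and EGLN3, which form the feedback arm of the pathway, had the same sign. EGLN1 measured 36.9 and 37.2 CPM against 44.7 and 45.6 CPM, with little spread in either group and a log2 fold change of 0.28 (SE 0.12, adjusted p = 0.142). EGLN3 measured 13.1 and 18.2 CPM against 24.8 and 19.8 CPM, with a log2 fold change of 0.51 (SE 0.19, adjusted p = 0.0874). SPTSSA on the same strand overlaps the span of EGLN3 and averaged 211 counts per library, beside 222 to 515 for EGLN3. With the counts of the pseudogene EGLN3P1 added, the log2 fold change of EGLN3 was 0.44 (SE 0.18, adjusted p = 0.116 by edgeR). EGLN1, EGLN3 and KDM3A did not pass the threshold. The 3 were called in single fits that left out 1 library: EGLN1 without USP47 shRNA replicate 1 (adjusted p = 0.0457), and EGLN3 (2.90e-05) and KDM3A (0.00408) without USP47 shRNA replicate 2.

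HIF1A mRNA was lower in both knockdown libraries, with 119.1 and 97.0 CPM in control cells and 87.9 and 69.3 CPM in knockdown cells. The libraries inside a group differed by more than the nearest libraries of the 2 groups did, and the log2 fold change of -0.46 (SE 0.16) was not called (adjusted p = 0.0728). HIF1A passed the threshold without USP47 shRNA replicate 1 (2.97e-06) and replicate 2 (0.0477), but not without control replicate 1 (0.607) or 2 (0.129). EPAS1, at 16 to 27 counts per library, had a log2 fold change of -0.04 (SE 0.30), and ARNT (104.4 and 105.7 CPM against 105.4 and 124.2) one of 0.13 (SE 0.13). The groups overlapped in EPAS1 and ARNT.

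**Figure D4:**
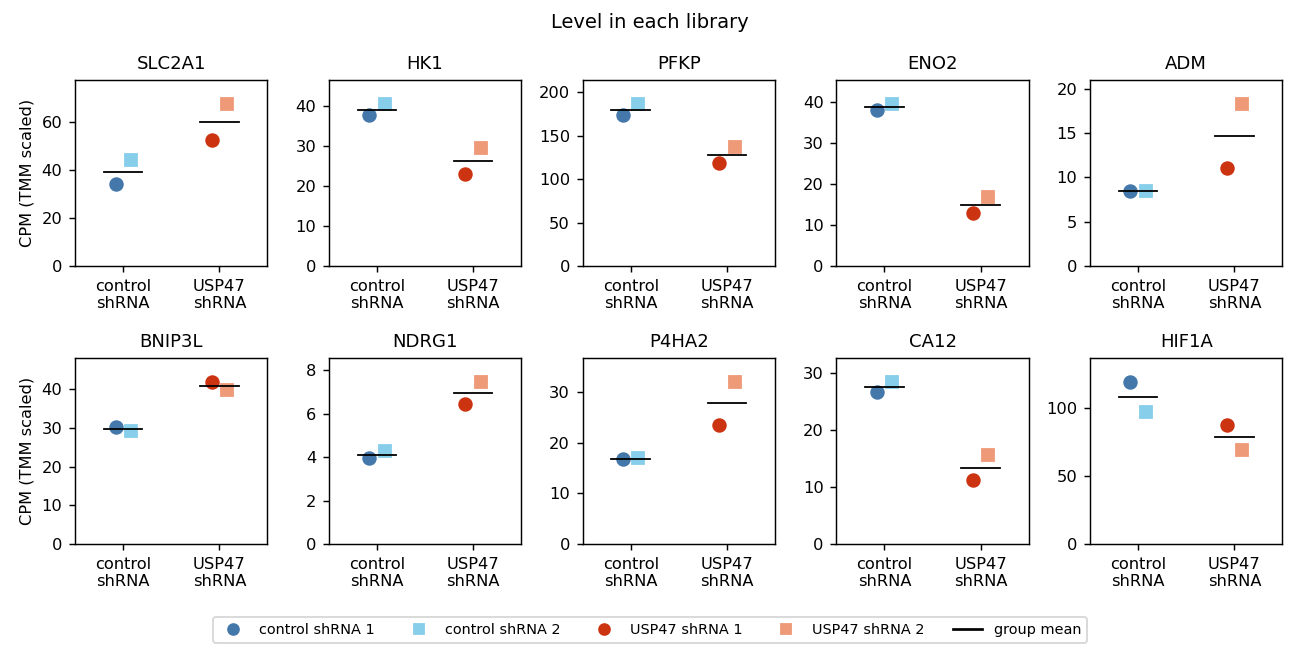
Level in CPM after TMM scaling (y axes, from 0) of the 9 called genes and HIF1A in each library (points) with the group mean (line), control shRNA on the left and USP47 shRNA on the right of each panel. The points of the groups do not overlap in any of the 10 panels, 9 of them chosen by their call, nor in 61.0% of all genes tested. HIF1A was not called (adjusted p = 0.0728 by edgeR), and the USP47 shRNA values of ADM (11.1 and 18.3 CPM) lie apart.

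Genes beside these in the same pathways were read from lists of further members, drawn up with earlier results of these libraries known. In other glucose metabolism genes (40 listed, 29 tested) 3 rose and the other 26 were not called (10.3% called, beside 16.1% of all genes tested), with a median log2 fold change of 0.20. The 3 were PDP1, the phosphatase that activates pyruvate dehydrogenase (14.2 and 13.5 CPM against 22.5 and 23.0, log2 fold change 0.72, adjusted p = 0.00846), PDK2, a kinase that inactivates it (17.9 and 20.2 against 26.5 and 39.6, log2 fold change 0.79, adjusted p = 0.0196), and GPD1, the glycerol phosphate dehydrogenase (1.53 and 1.99 against 3.17 and 3.62, log2 fold change 0.93, adjusted p = 0.0300). In the HIF regulators (15 listed, 14 tested) 3 rose and 11 were not called (21.4% called), with a median of 0.26. They were OS9, an endoplasmic reticulum lectin reported to bind HIF1A (79.8 and 85.9 CPM against 121.1 and 143.9, log2 fold change 0.68, adjusted p = 0.0102), ELOB, a subunit of the VHL ligase (69.9 and 78.5 against 96.4 and 126.8, 0.59, adjusted p = 0.0293), and the coactivator CREBBP (243.1 and 254.5 against 325.2 and 372.2, 0.49, adjusted p = 0.0381). Each of these genes lost its call without control replicate 1, and all but PDK2 without control replicate 2, fits that also called fewer of all genes tested. When 1 library was left out the log2 fold change was 0.68 to 0.76 for PDP1, 0.48 to 1.06 for PDK2 and 0.76 to 1.13 for GPD1. For OS9 it was 0.55 to 0.81, for ELOB 0.38 to 0.78 and for CREBBP 0.39 to 0.59.

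Further HIF targets, 32 genes all tested, gave 4 higher and 4 lower and a median log2 fold change of 0.04. The 3 with the smallest p that rose were PPP1R3C, a glycogen-targeting subunit of protein phosphatase (3.42 and 3.16 CPM against 9.04 and 12.3, log2 fold change 1.69, adjusted p = 0.00114), FAM162A (12.3 and 12.1 against 20.9 and 19.2, 0.72, adjusted p = 0.00954) and the lysyl hydroxylase PLOD1 (81.9 and 86.4 against 119.7 and 140.5, 0.63, adjusted p = 0.0127). The 3 with the smallest p that fell were AK4, an adenylate kinase of mitochondria (33.8 and 29.9 CPM against 14.4 and 20.6, log2 fold change -0.87, adjusted p = 0.0106), the chemokine receptor CXCR4 (16 and 20 counts against 3 and 4, -2.26, adjusted p = 0.0124) and the mTOR inhibitor DDIT4 (100.9 and 105.8 CPM against 48.9 and 77.8, -0.71, adjusted p = 0.0313). The fourth of each direction, the histone demethylase KDM4B (log2 fold change 0.50, adjusted p = 0.0371) and the transferrin receptor TFRC (-0.44, adjusted p = 0.0416), fell outside the rule for named genes and were added after their values were seen. The groups did not overlap in any of these 8 genes, which were chosen by their call, nor in 61.0% of all genes tested. Of the list, which was drawn up with earlier results of these libraries known, 25.0% was called, beside 16.1% of all genes tested. PPP1R3C, AK4 and CXCR4 were called in each fit that left out 1 library, whereas FAM162A, PLOD1 and DDIT4 lost their call without either control library (highest adjusted p = 0.106, 0.233 and 0.0688).

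General stress genes that hypoxia lists also hold, such as immediate early transcription factors, had the highest share called of the lists. Of 23 listed and 21 tested, 9 rose and 1 fell (47.6% called, beside 16.1% of all genes tested, of which 6.52% were higher and 9.56% lower). The median of their log2 fold changes was 0.58. FOS rose from 0.94 and 1.17 CPM to 5.53 and 7.11 CPM (log2 fold change 2.55, adjusted p = 0.000512), JUN from 11.3 and 12.8 to 35.3 and 59.8 (1.97, adjusted p = 0.000786), and the cell cycle inhibitor CDKN1B from 39.5 and 39.6 to 79.2 and 93.6 (1.13, adjusted p = 0.000940). The urokinase receptor PLAUR fell (4.66 and 5.71 CPM against 3.22 and 2.58, -0.82, adjusted p = 0.0298). FOS and JUN are activated by many stimuli and are not specific to HIF. When 1 library was left out the log2 fold change was 2.37 to 2.74 for FOS, 1.55 to 2.31 for JUN and 1.01 to 1.25 for CDKN1B. For PLAUR it was -1.0 to -0.67, and PLAUR lost its call without either control library. The list was drawn up with earlier results of these libraries known, and its difference from the glycolysis and HIF lists was not tested.

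**Figure D5:**
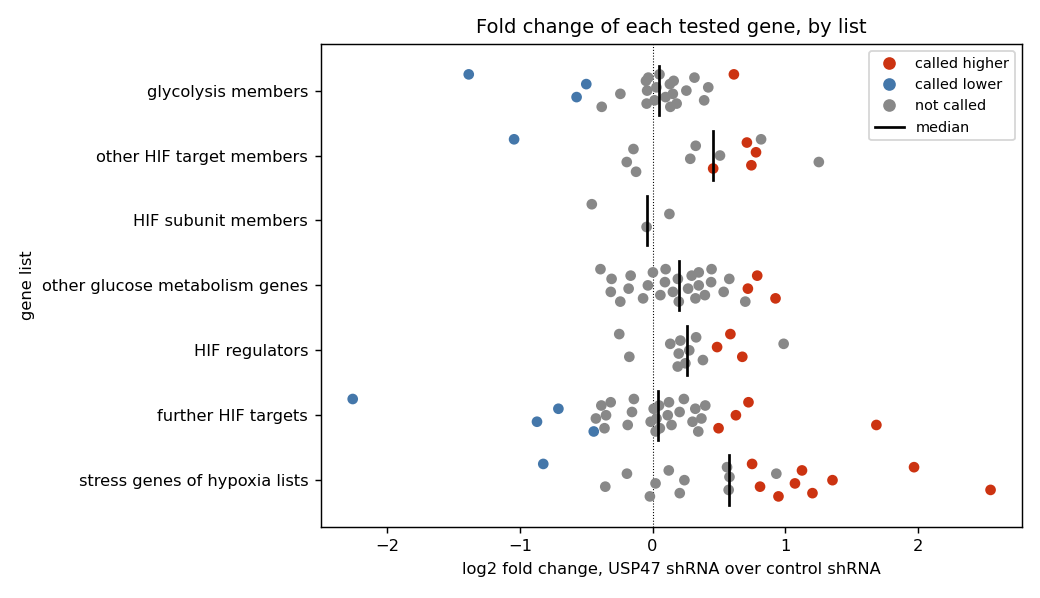
Log2 fold change of each tested gene, USP47 shRNA over control shRNA (x axis), for the 3 groups described and 4 further lists (y axis), with the median of each list as a black line. Red points were called higher, blue points called lower and grey points not called, and the medians run from -0.04 for the 3 HIF subunits to 0.58 for the 21 stress genes.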

How the data were processed

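The 4 RNA-Seq libraries of HGC-27 cells were grouped by the submitters' labels. For each library the authors deposited unnormalized counts of reads per gene with FPKM and TPM derived from them. Per the labels and methods, bases below a quality score of 20 were trimmed, reads were mapped to hg19 with STAR 2.7.5c, and duplicates and low-quality reads were removed with SAMtools 1.9. The submitters' notes also name featureCounts. The annotation and use of strand are not given in the sources used here. Duplicate removal without molecular identifiers lowers abundant genes most. The library kit is named differently in the labels and the methods.

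Counts were compared with edgeR 4.0.16 in R 4.3.3 (TMM, filterByExpr, robust quasi-likelihood fit, both directions, Benjamini-Hochberg over 21932 genes, adjusted p under 0.05). The fit was tested on simulated data in which all genes shared 1 dispersion. It recovered 65.3% of log2 changes of size 1 and 96.8% of size 2. Of 161 genes called, 7 were false calls, and 0 were called where no gene was changed. Log2 changes smaller than 1, as in most of the 39 genes, were not simulated. With 2 libraries per group the spread of a gene rests largely on genes of similar abundance. TPM as deposited served for levels and family shares, and FPKM was not used. Symbols matched 55665 identifiers. Positions come from GRCh37 (GENCODE release 44, lifted) and promoters from RefSeq. Alternatives were DESeq2 1.42.0, legacy quasi-likelihood, other scalings and filters, a replicate block, each library left out, removal of 7SL, mitochondrial and ENSG00000258486 counts, and addition of pseudogene counts. All 39 genes and USP47 were named, and from each further list up to 3 called genes per direction with the smallest p. The genes and lists were chosen with earlier results of these data known. Replicate numbers share no stated batch, so libraries were not paired.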

Additional observations from a re-analysis of the deposited data

How the results depend on the processing

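Among 21932 genes 3527 were called, and leaving out 1 library moved this between 1230 and 7270. Such a fit has a lone library in 1 group that is assumed to vary like the other group. Glycolysis genes called higher then numbered 0 to 7 and lower 1 to 5, other HIF targets called higher 0 to 6 and lower 1 to 2, and the median log2 fold change was -0.09 to 0.21 for glycolysis genes and 0.33 to 0.43 for the other HIF targets. With library size alone the glycolysis median was -0.03. ENO2 and CA12 were called in each fit run. Glycolysis genes called higher were 0 with library size alone and without a filter, and 2 under DESeq2's Wald test. Other HIF targets called higher were 2 with library size alone and 2 without a filter, and their median was 0.39 with library size alone and 0.38 with at least 10 counts in every library, which removed CA9. Library size alone called 31.5% of its 2800 genes higher, beside 40.5%. DESeq2's Wald test called 2447 genes.

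With the replicate number as a block, 7422 genes were called, among them 3 glycolysis genes higher (HK2 and PGAM1 added) and 9 other HIF targets higher (CA9, ANKRD37, EGLN1, EGLN3 and KDM3A added), and HIF1A was called lower (adjusted p = 8.56e-05). The numbers share no stated batch, and the deviations of replicates 1 correlated at 0.27 between the groups. The log2 fold change turned sign with library size alone in TPI1 (-0.049), PKM (-0.025) and LDHB (-0.054), without a filter in TPI1 (-0.0043) and LDHB (-0.015), and with at least 10 counts in LDHB (-0.00105). When 1 library was left out it spanned 0 in PFKL (-0.17 to 0.11), PFKM (-0.14 to 0.053), ALDOA (-0.080 to 0.38), ALDOC (-0.17 to 0.41), TPI1 (-0.16 to 0.21), GAPDH (-0.092 to 0.38), PGK1 (-0.023 to 0.22), ENO1 (-0.24 to 0.14), PKM (-0.12 to 0.22), LDHB (-0.048 to 0.078), PDK1 (-0.19 to 0.10), VEGFA (-0.34 to 0.045), BNIP3 (-0.43 to 0.21) and EPAS1 (-0.16 to 0.050), none of them called in the full fit. Family shares were also taken from counts without length. The share of PFKP in knockdown minus control cells was -6.82 points from counts and -7.71 from TPM, and that of ENO1 1.76 and 1.63. For P4HA1 these differences were -11.8 and -6.34, for CA12 -5.25 and -18.1, and for HIF1A -0.36 and -0.26. Apart from fewer libraries or genes tested, the cause of the changes between fits, or between counts and TPM, was not tested.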
